A study of Mus musculus with 48 samples.

Results

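The genes described here encode the proteins of the cytosolic ribosome. They were taken as every transcript of the deposited read count table whose symbol has the form Rps or Rpl plus a number, with the stalk genes Rplp and the suffixes a, l, l1 and x included. This rule used names alone and gave 82 of 24264 transcripts, 31 of the small subunit and 51 of the large subunit. RNA was sequenced in 48 mouse libraries of 20 conditions with the STRT method, which reads the 5′ ends of transcripts, so levels are given in CPM (counts scaled to a total of 1000000 reads on transcripts) and were not divided by length. The study followed fibroblasts on their way to induced pluripotency under a doxycycline-inducible cassette, MKOS (Myc, Klf4, Oct4, Sox2) or OKMS (Oct4, Klf4, Myc, Sox2). The cassettes differ both in the order of the factors and in Klf4. MKOS carries the long form and OKMS a form with a shorter N terminus, so these differences cannot be told apart in these libraries. In other experiments, the study reported that OKMS given the long Klf4 showed cell surface marker changes similar to those of MKOS.

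Mouse embryonic fibroblasts (MEFs) were wild type (WT MEF) or carried the MKOS or OKMS cassette (MKOS MEF, OKMS MEF), with 2 libraries each. Each cassette, together with a CAG promoter-driven rtTA, had been targeted into an intron of *Sp3* in TNG ESCs, a line in which GFP reports *Nanog*. These targeted clones were used to make chimeric embryos, from which the transgenic MEFs were isolated. Reprogramming cells grew in doxycycline and vitamin C, for 10 days by the design text and for 10 or 15 days by the growth protocol, after the transgenic MEFs had been diluted with wild-type MEFs. They were sorted, with 3 libraries per population, by CD44 and ICAM1 (2 is CD44- ICAM1-, 3 is CD44- ICAM1+), by Nanog-GFP (NG- or NG+) and by E-cadherin (E-CAD- or E-CAD+). Each cassette gave 3 populations of E-CAD+ cells (2NG-, then 3NG-, then 3NG+), and OKMS also gave a pair of E-CAD- populations (2NG- and 3NG-). The iPSC conditions were MKOS and OKMS iPSCs without doxycycline or in 2i medium, and D6s4B5 (D6), an iPSC line with a piggyBac MKOS insertion in *Sp3*. The ESC conditions were TNG MKOS, TNG OKMS, TNG and E14. Each of these iPSC and ESC conditions had 2 libraries. The labels number the replicates without saying whether they came from separate cultures or animals, so adjusted p-values measure the spread between these libraries, which may be technical.

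A cytosolic ribosome holds 1 copy of most of its proteins, and cells hold the transcripts of these genes at high and similar levels. Their mRNAs typically begin with a C followed by a run of pyrimidines, the terminal oligopyrimidine (TOP) start, through which LARP1 and mTORC1 control their translation. Growing and dividing cells need many ribosomes, and Myc is a known activator of ribosome production. Some of these proteins have a second gene, a paralog, whose use differs between tissues: *Rpl10l* and *Rpl39l* are best known from the male germ line and *Rpl3l* from heart and skeletal muscle. The many processed pseudogenes of ribosomal protein genes make short reads hard to place, so the share of reads placed at a single position is given with the levels.

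The 82 transcripts held 62838964 of 337568013 reads on transcripts, or 18.6%. Of their reads 49.9% were uniquely placed, against 79.4% for all other transcripts. Uniquely placed reads made up at least 90% in 23 members, at least 50% in 41, and under 10% in 14. A total of 78 members had reads in every library. Depth ranged from 1429717 reads on transcripts in OKMS 3NG+ replicate 2 to 14174725 in OKMS E-CAD+ 2NG- replicate 3, so that 3 reads, the most that a count of 0 allows, correspond to 2.10 and 0.212 CPM. Such floors cover counting error only.

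The levels of the members were uneven. The most abundant transcript was *Rps20* (small subunit), with a mean of 7588 ± 1545 CPM (SD, n = 48 libraries), of which 99.8% was unique. It was followed by *Rplp1*, a protein of the stalk that recruits elongation factors, with a mean of 7472 CPM but 7.88% unique reads. *Rpl32* (6903 CPM, 23.4% unique) and *Rps3a* (6529 CPM, 90% unique) were also among the most abundant, and each of these genes differed from the one named before it by less than 1 SD over libraries. The 10 most abundant members held 36% of the member reads. Of the other stalk genes, *Rplp2* had a mean of 6211 CPM (98.5% unique) and *Rplp0*, the stalk base, 536 CPM (20.3% unique).

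At the low end, the mean level was 66.6 CPM for *Rpl30*, 32.1 CPM for *Rpl34*, 2.97 CPM for *Rps27*, 0.918 CPM for *Rpl3l* and 0.0326 CPM for *Rpl26*. *Rpl26*, with 16 reads in 2 libraries, was the 1 member that did not pass the filter on low counts, and 81 members were tested among 15630 transcripts. *Rpl26*, *Rpl30* and *Rpl34* encode core proteins of the large subunit, and *Rps27* has a paralog, *Rps27l*, with a mean of 2063 CPM. All reads of *Rpl26*, *Rps27* and *Rpl30* were unique. These low counts are what the table lists at the annotated transcript, and whether reads of these genes were placed elsewhere was not tested. The lowest unique shares were those of *Rps28* (0.407%), *Rpl27* (2.16%), *Rps6* (2.45%), *Rps12* (2.64%) and *Rpl3* (3.44%), and their levels may include reads of near-identical copies.

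Promoter sequences of the paralogs *Rpl10l* and *Rpl39l* are shown beside those of the genes they resemble. The following are 120 bases each from RefSeq (GRCm38.p6), 5′ to 3′ on the strand of the gene, with 100 bases before the annotated start. Capitals mark the annotated start base, any pyrimidines that continue from it, and the motifs searched for. *Rpl10* and *Rpl39* are the widely used genes of their pairs, and *Rplp2* and *Rps7* are shown as a member with a TOP-like start and as the member outside the paralogs with the largest MEF to ESC change.
Rpl10, chrX:74270716-74270835, plus strand: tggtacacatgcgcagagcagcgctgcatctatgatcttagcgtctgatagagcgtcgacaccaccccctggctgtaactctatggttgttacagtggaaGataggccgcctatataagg
Rpl10l, chr12:66284382-66284501, minus strand: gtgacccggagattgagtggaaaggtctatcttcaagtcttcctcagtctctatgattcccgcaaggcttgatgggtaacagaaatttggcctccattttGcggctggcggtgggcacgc
Rpl39, chrX:37085203-37085322, minus strand: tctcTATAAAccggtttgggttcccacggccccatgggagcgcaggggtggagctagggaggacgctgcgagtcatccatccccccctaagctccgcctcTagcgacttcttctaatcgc
Rpl39l, chr16:10170128-10170247, plus strand: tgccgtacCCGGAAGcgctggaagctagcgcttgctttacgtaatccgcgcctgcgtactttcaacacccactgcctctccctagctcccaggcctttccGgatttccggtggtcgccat
Rplp2, chr7:141447551-141447670, plus strand: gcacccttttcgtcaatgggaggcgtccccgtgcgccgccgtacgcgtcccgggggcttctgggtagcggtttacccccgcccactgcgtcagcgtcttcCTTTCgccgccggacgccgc
Rps7, chr12:28635934-28636053, minus strand: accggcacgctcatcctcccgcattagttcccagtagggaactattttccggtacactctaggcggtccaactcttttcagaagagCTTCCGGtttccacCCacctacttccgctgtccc

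RefSeq promoters of 300 bases were matched to 61 members. Of these, 12 (19.7%) had a C at the annotated start followed by at least 4 pyrimidines, a TOP-like start, against 2.53% of 27025 promoters. CCGGAAG on either strand, a sequence that ETS factors are known to bind, was found in 24 members (39.3%) and in 9.08% of all promoters. AAGATGGC on either strand, a known YY1 sequence, was found in 6 members (9.84%) and in 2.86% of all promoters, and TATAAA on the strand of the gene in 6 (9.84%) and in 8.89%. CCGGAAG and AAGATGGC can share the letters AAG where one follows the other, so a stretch can count for both. *Rplp2* had the TOP-like start, while the annotated starts of *Rpl10*, *Rpl10l* and *Rpl39l* were a G. *Rpl10* and *Rpl10l* held none of the features searched for. *Rpl39* and *Rpl39l* both held CCGGAAG, for *Rpl39* outside the bases printed above, and of this pair only *Rpl39* held TATAAA. A match describes these letters in this window and is not evidence of a bound factor, and an annotated start can differ from the one a cell uses.

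Some libraries stood apart in their ribosomal protein transcripts, a point seen in the data and not planned. In the TNG MKOS ESC pair, 16 of 82 members differed more than 2-fold between the libraries, and in the TNG OKMS ESC pair 15 did, against 0 to 8 in every other pair of replicates. *Rpl13* was at 373 CPM in TNG MKOS ESC replicate 1 and 1484 in replicate 2, and at 1035 in TNG OKMS ESC replicate 1 and 359 in replicate 2. *Rps4x* followed the same order with 396 and 1289 CPM, then 930 and 325 CPM. *Rps26* was at 237 and 1107 CPM, then at 514 and 185 CPM. The higher library of each pair was thus the same one for all 3 genes, which were picked after their values were seen and had unique shares of 24.1%, 6.53% and 42.5%. *Rps4x* was also at 1189 CPM in MKOS iPSC without doxycycline replicate 1. Some results that rest on these 2 ESC libraries are also given without them. Shares of reads, counts of members without overlap and the lists of other genes include them.

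**Figure D1:**
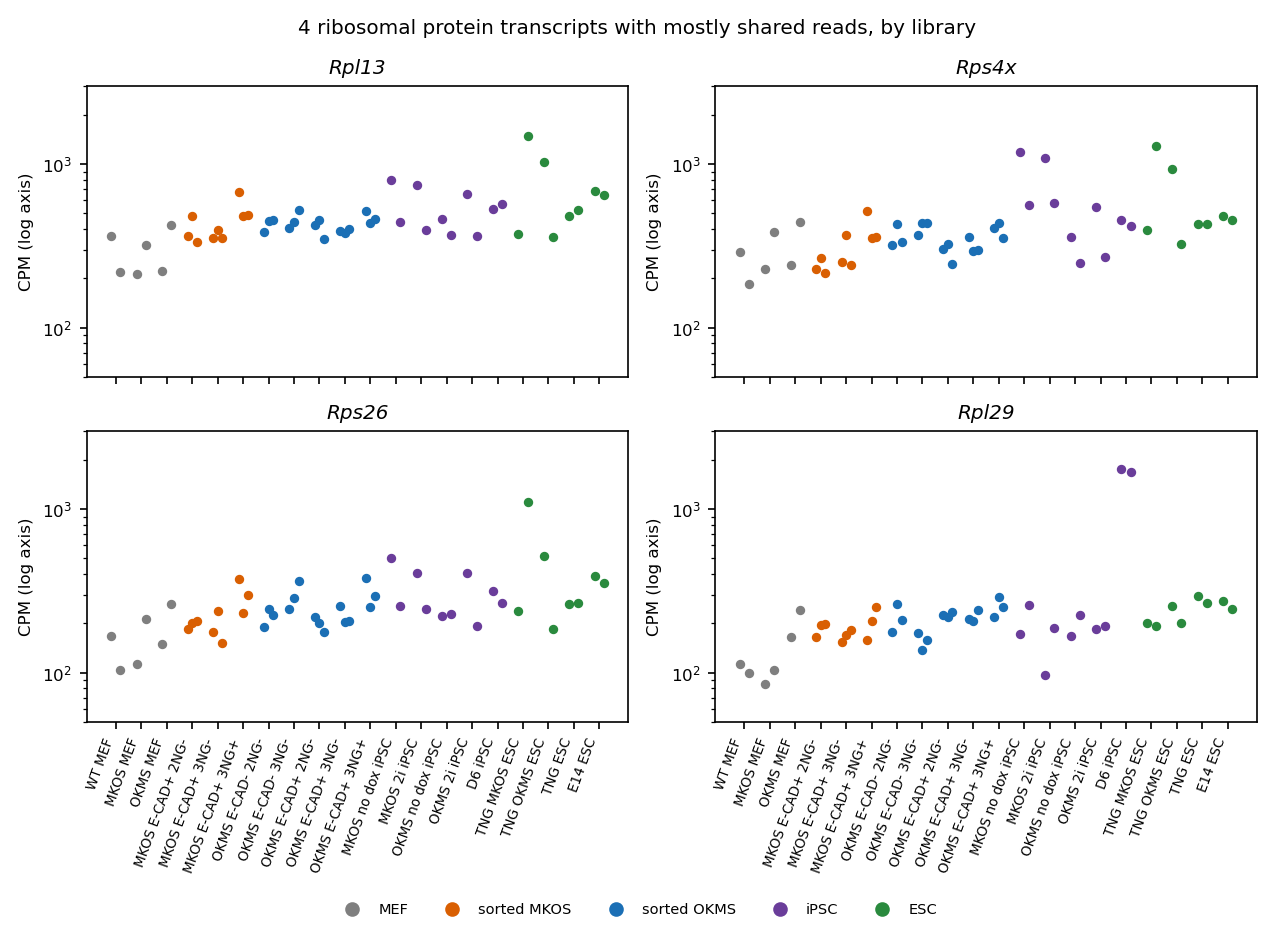
CPM on a log axis of *Rpl13*, *Rps4x*, *Rps26* and *Rpl29* in each of the 48 libraries, with 1 point per library, conditions along the x axis and colors for MEF, sorted MKOS, sorted OKMS, iPSC and ESC. In the first 3 genes 1 library of the TNG MKOS ESC pair and 1 of the TNG OKMS ESC pair lie above the other ESC libraries, and in *Rpl29* the 2 D6 libraries, at 1753 and 1680 CPM, lie above all others.

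The first question was how much of the transcriptome of each cell population went to the ribosome. In the 6 MEF libraries the members took 12.4% to 14.5% of the reads on transcripts, with a mean of 13.7% ± 0.796 (SD, n = 6). In all 42 other libraries they took 15.0% to 23.9%, so that no MEF library overlapped with any other. The ESC libraries ranged from 17% to 22.1% (median 19.3%) and the iPSC libraries from 17.2% to 23.9% (median 20.02%). The mean share was 1.43 times as high in ESCs and 1.52 times as high in iPSCs as in MEFs. In bulk RNA a larger share of ribosomal protein transcripts per cell and a different mix of cells cannot be told apart.

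Among the sorted cells the MKOS shares were lower than the OKMS shares in E-CAD+ 2NG- and 3NG-. MKOS 2NG- libraries had 16.6%, 16.6% and 17.1% and OKMS E-CAD+ 2NG- libraries 19.0%, 19.5% and 20.9%. MKOS 3NG- libraries had 16.3%, 16.6% and 15.0% and OKMS E-CAD+ 3NG- libraries 19.6%, 18.8% and 19.2%. In both pairs the groups did not overlap. In 3NG+ the MKOS libraries were spread over 16.9%, 21.4% and 18.3%, and the OKMS libraries lay above all of them at 22.0%, 22.1% and 22.9%. The mean OKMS share was 1.18 times the MKOS share in 2NG-, 1.20 times in 3NG- and 1.18 times in 3NG+, ratios given without a test. In OKMS E-CAD- cells the share was 16.05% to 19.8% in 2NG- and 17.8% to 18.8% in 3NG-. The 2NG- libraries overlapped with those of E-CAD+ cells, and the 3NG- libraries lay just below the E-CAD+ ones. Small-subunit reads were 0.819 to 0.872 times the large-subunit reads in MEFs and 0.834 to 0.971 times in the other libraries.

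**Figure D2:**
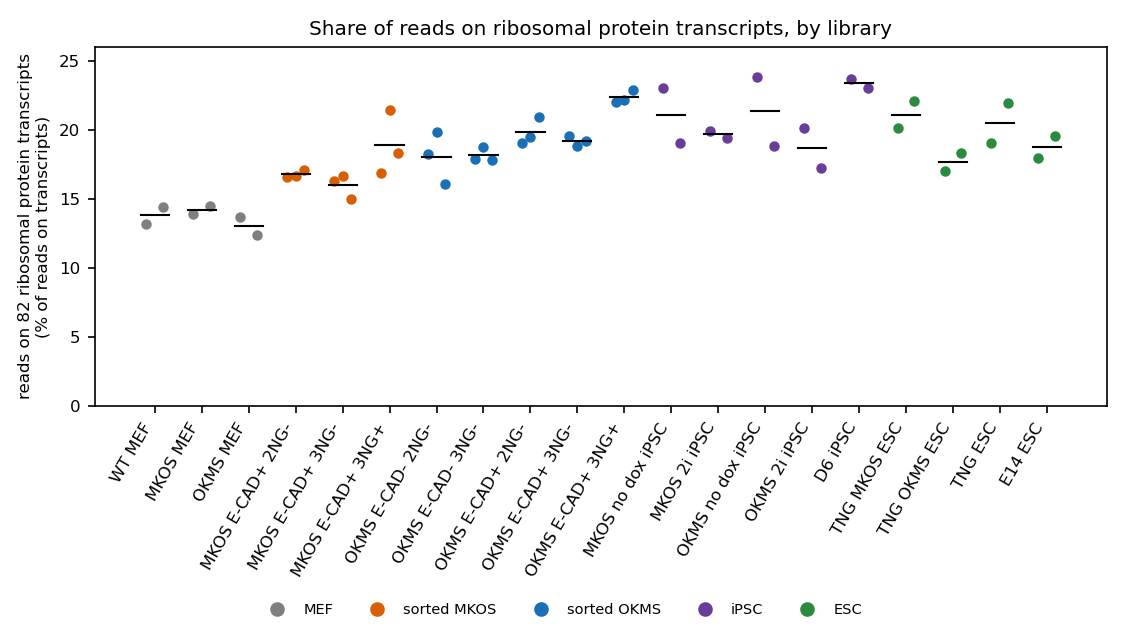
Percent of reads on transcripts that fell on the 82 ribosomal protein transcripts, with 1 point per library and conditions along the x axis, in colors for MEF, sorted MKOS, sorted OKMS, iPSC and ESC. The 6 MEF libraries lie at 12.4% to 14.5%, below the 15.0% to 23.9% of all other libraries.

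In ESCs most ribosomal protein transcripts were higher than in MEFs. Of the 81 members tested, 75 rose, where 29.6% of all transcripts tested rose, and 1 fell, where 30.4% of all fell (false discovery rate, FDR, of at most 0.05). The median log2 change of the members was 0.80, beside 0.00 for all transcripts. In CPM, every ESC library lay above every MEF library for 46 of 82 members (56.1%), against 12.2% of the 19768 transcripts with reads, and the reverse held for 0 members and for 14.1% of the transcripts. A total of 25 of 82 members were higher in each of the 42 other libraries than in any MEF library (30.5%), against 2.9% of the transcripts with reads. Under relative log expression factors the median of all transcripts shifted to -0.13 and that of the members to 0.64.

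Outside the paralogs the largest rise was that of a small-subunit gene. *Rps7*, which binds the Mdm2 ubiquitin ligase when free of the ribosome, was at 402 and 414 CPM in WT MEF, 209 and 322 in MKOS MEF, and 359 and 307 in OKMS MEF. In the 8 ESC libraries it ranged from 679 to 1334 CPM, all above the MEF libraries, and 98.5% of its reads were unique. It rose by 1.65 ± 0.16 (log2 ± SE, FDR 4.25e-12). Of the abundant members, *Rps20* (0.56 ± 0.14) and *Rps3a* (0.48 ± 0.12) rose, and *Rpl32* (0.24 ± 0.12, FDR 0.092) and *Rplp1* (0.11 ± 0.12, FDR 0.45) did not pass the test. Without the 2 ESC libraries that stood apart *Rpl32* passed, at 0.32 ± 0.13 (FDR 0.030).

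Of the stalk genes, *Rplp2* rose by 0.68 ± 0.13 (FDR 1.4e-05) and *Rplp0* by 0.62 ± 0.14 (FDR 0.00018), or by 0.38 ± 0.13 (FDR 0.012) without the 2 ESC libraries that stood apart. *Rplp2* was at 3924 to 4773 CPM in the 6 MEF libraries and at 5262 to 8616 CPM in the 8 ESC libraries. All ESC libraries were therefore above all MEF libraries. Among the members with few unique reads, *Rps28* (0.75 ± 0.14), *Rpl27* (0.78 ± 0.11), *Rps6* (0.50 ± 0.13), *Rps12* (0.51 ± 0.18) and *Rpl3* (1.07 ± 0.14) all rose. Of the scarce members, *Rpl30* (1.46 ± 0.26) and *Rpl34* (0.91 ± 0.28) rose, and *Rps27* had a change of 0.03 ± 0.66 (FDR 1.0). *Rps27* was at 0.186 to 8.58 CPM in MEFs, where only OKMS MEF replicate 1 lay below its floor, and at 1.49 to 4.33 CPM in ESCs.

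The paralogs moved in different directions. *Rpl10l* was listed at 0.302 and 0.183 CPM in WT MEF, 0.102 and 0.222 in MKOS MEF, and 0 and 0 in OKMS MEF, 7 reads in all. In the ESCs it was at 42.8 to 111 CPM, or 4666 reads, and the pooled levels differed 452-fold (95% interval of the counts 219 to 1126, counting error only). The test gave a log2 change of 9.48 ± 0.50 (FDR 2.6e-19), and 92.6% of the reads were unique. *Rpl39l*, with 99.96% unique reads, was at 11.1 to 30.7 CPM in MEFs and 94.0 to 347 CPM in ESCs and rose by 3.16 ± 0.25 (FDR 4.4e-14). Both genes were higher in every ESC library than in any MEF library.

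The counterparts of these paralogs changed less. *Rpl10*, its reads 13.3% unique, was at 213 to 405 CPM in MEFs and 237 to 864 CPM in ESCs, and rose by 0.59 ± 0.15 (FDR 0.0010) with overlap of the groups. Without the 2 ESC libraries that stood apart, *Rpl10* was at 237 to 370 CPM in ESCs, and its change of 0.23 ± 0.13 (FDR 0.13) did not pass the test. *Rpl39* was at 4621 to 6603 CPM in MEFs and 3422 to 6935 CPM in ESCs, a log2 change of -0.04 ± 0.15 (FDR 0.91). Even in ESCs *Rpl39l* thus stayed far below *Rpl39*, although 42.4% of the *Rpl39* reads were unique. *Rpl7l1*, whose product takes part in ribosome assembly, rose by 1.18 ± 0.13 (FDR 5.1e-10). *Rpl3l* had 2 reads in the 6 MEF libraries and 99 in the 8 ESC libraries, a ratio of 33.6 (95% interval of the counts 9.06 to 281), and rose in the test (FDR 0.00025).

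*Rps27l*, a p53 target in human cells, was the member that fell, by 0.34 ± 0.13 on the log2 scale (FDR 0.028), from 1870 to 2581 CPM in MEFs to 1391 to 1904 CPM in ESCs, with overlap. The *Rps27l* call was lost in 7 of 23 alternative fits (FDR up to 0.131), among them that without the 2 ESC libraries that stood apart and those without E14 ESC replicate 1, TNG MKOS ESC replicate 2, WT MEF replicate 2, MKOS MEF replicate 1 or OKMS MEF replicate 1. *Rpl22l1* had a change of -0.06 ± 0.17 (FDR 0.82), while its counterpart *Rpl22* rose by 1.12 ± 0.13 (FDR 4.8e-10).

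**Figure D3:**
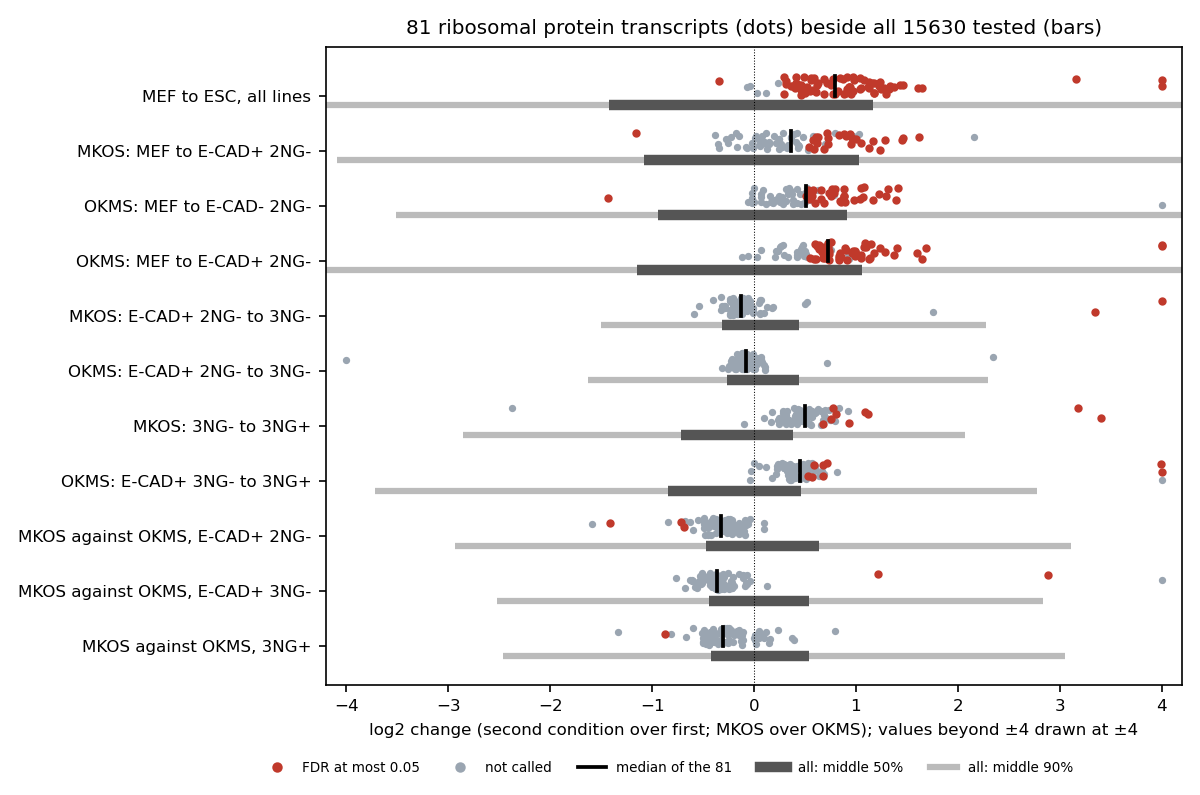
Log2 change of each of the 81 tested ribosomal protein transcripts (dots, red where the FDR was at most 0.05, with a black line at their median) in 11 comparisons, beside the middle 50% and 90% of all 15630 transcripts tested (bars); values beyond 4 are drawn at 4. The medians of the members lie to the right of 0 from MEF to ESC and from MEF to the 2NG- populations, and to the left of 0 for MKOS against OKMS, with up to 14 of the 81 dots on the other side.

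Some of the members rose from MEFs to the first sorted populations, with the largest count in OKMS E-CAD+ cells. In MKOS, 25 members rose from MKOS MEF to E-CAD+ 2NG-, where 15% of all transcripts rose, and 1 fell, where 12% of all fell, with a median of 0.36. In OKMS, 53 members rose from OKMS MEF to E-CAD+ 2NG-, where 15.7% of all transcripts rose, with a median of 0.72. From OKMS MEF to E-CAD- 2NG-, 36 members rose, where 11.7% of all rose, and 1 fell, where 10.1% of all fell, with a median of 0.51. The last 2 comparisons share the OKMS MEF libraries. The OKMS counts depend on OKMS MEF replicate 2: without it 24 members were called in E-CAD+ 2NG- and 12 in E-CAD- 2NG-. Without OKMS E-CAD- 2NG- replicate 2 the latter count was 24. The MKOS count was 15 without MKOS MEF replicate 1 and 16 without replicate 2, and among the members with at least 90% unique reads 18.2% were called, against 32.1% of all members tested.

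*Rps7* and *Rpl31* were among the largest rises in each cassette. *Rps7* rose by 1.62 ± 0.26 (FDR 9.4e-06) in MKOS, to 829, 792 and 861 CPM in E-CAD+ 2NG-, and by 1.69 ± 0.27 (FDR 4.1e-06) in OKMS, to 999, 1047 and 976 CPM. *Rpl31* rose by 1.46 ± 0.21 in MKOS and 1.65 ± 0.21 in OKMS E-CAD+ 2NG-. It was at 176 and 169 CPM in MKOS MEF, at 211 and 184 in OKMS MEF, and at 456 to 594 CPM in the 6 E-CAD+ 2NG- libraries, with no overlap. In MKOS *Rpl5*, whose product with that of *Rpl11* and the 5S RNA forms a particle that binds Mdm2, rose by 1.23 ± 0.18. In OKMS E-CAD+ cells *Rpl30* rose by 1.60 ± 0.44. In E-CAD- cells *Rpl31* (1.42 ± 0.21), *Rpl34* (1.40 ± 0.49), *Rps7* (1.31 ± 0.26) and *Rpl30* (1.29 ± 0.44) were among the members that rose most. In that step the *Rpl34* call was lost in 5 of 14 alternative fits (FDR up to 0.195), among them those without either OKMS MEF library or without E-CAD- 2NG- replicate 2 or 3. The *Rpl30* call was lost in 3 of 14 (FDR up to 0.32), among them those without OKMS MEF replicate 2 or E-CAD- 2NG- replicate 3, and in E-CAD+ cells in 1 of 14, without OKMS MEF replicate 2. The calls of *Rpl31* and *Rps7* were lost in 0 of 14.

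In OKMS E-CAD+ 2NG- the largest fitted changes were those of *Rpl3l* (FDR 0.037) and *Rpl10l* (FDR 0.017), both with 0 reads in OKMS MEF. With 22 and 17 reads in 2NG-, their pooled levels were at least 4.47-fold and 3.46-fold higher than the floor of 3 reads for the MEF group. The *Rpl3l* call was lost in 7 of 13 alternative fits (FDR up to 0.212) and the *Rpl10l* call in 4 of 13, among them for both genes those without OKMS MEF replicate 1 or 2. *Rpl7l1* rose in all 3 steps, by 0.90 ± 0.22 in MKOS, 1.13 ± 0.23 in OKMS E-CAD+ cells and 1.05 ± 0.23 in E-CAD- cells.

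*Rpl22l1* was called in OKMS and not in MKOS. It rose by 1.10 ± 0.31 (FDR 0.0055) from OKMS MEF to E-CAD+ 2NG- and by 1.07 ± 0.31 (FDR 0.0089) to E-CAD- 2NG-, and its change was -0.25 ± 0.29 (FDR 0.56) in MKOS. The levels were 294 and 199 CPM in OKMS MEF, 434 to 603 CPM in OKMS E-CAD+ 2NG-, 297 and 393 CPM in MKOS MEF, and 213 to 370 CPM in MKOS 2NG-. The OKMS groups did not overlap and the MKOS groups did, and the difference between the cassettes was 1.35 ± 0.42 for *Rpl22l1* (FDR 0.10). The same test over all members called 0 in edgeR, where 1.35% of all transcripts were called, with 16 members at an unadjusted p under 0.05 and 1 called by DESeq2. The median of this difference, OKMS minus MKOS, was 0.40, or 0.26 with no normalization factors, where that of all transcripts was -0.18.

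Most members had lower values in MKOS than in OKMS in each sorted E-CAD+ stage, but few passed the test. In 2NG-, 79 of 81 members had a negative log2 difference (MKOS over OKMS), with a median of -0.33, and 3 were lower, where 2.23% of all transcripts were lower. These were *Rpl39l* (-1.42 ± 0.37, FDR 0.016), *Rpl10a* (-0.71 ± 0.20, FDR 0.024) and *Rpl27a* (-0.69 ± 0.19, FDR 0.022). In 3NG-, 77 of 81 were negative with a median of -0.37, while the 2 genes called were higher in MKOS (*Rpl10l* and *Rpl39l*), where 1.38% of all were higher. In 3NG+, 67 of 81 were negative with a median of -0.30, and 1 was lower, where 0.339% of all were lower: *Rpl23a*, at 2150, 4404 and 3116 CPM in MKOS and 5752, 4741 and 5636 CPM in OKMS (-0.88 ± 0.22, FDR 0.043). The *Rpl23a* groups did not overlap, but MKOS replicate 1 stood lowest, and without it 0 members were called. At an unadjusted p under 0.05 there were 21, 38 and 29 members, of which 21, 35 and 28 were lower in MKOS, and DESeq2 called 10, 8 and 4. These counts are given without the share of all transcripts and do not show whether the members differed more than other genes. With no normalization factors the medians were -0.23, -0.24 and -0.15, and that of all transcripts moved to 0.10, 0.13 and 0.17.

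*Rpl27a* was at 236, 246 and 197 CPM in MKOS 2NG- and at 337, 344 and 345 CPM in OKMS E-CAD+ 2NG-, without overlap. *Rpl10a* was at 1993, 2263 and 1810 CPM and at 2659, 3611 and 3089 CPM, also without overlap. The 2NG- count was 0 without OKMS E-CAD+ 2NG- replicate 3, and 1 without OKMS replicate 2 or without MKOS replicate 1 or 3. The MKOS MEF and OKMS MEF libraries gave 0 called members by edgeR, where 0.102% of all transcripts were called, with 3 at an unadjusted p under 0.05 and 1 called by DESeq2.

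Fibroblast and pluripotency transcripts moved with these comparisons. The summed level of 12 fibroblast markers, led by *Vim* in most libraries, was 5949 to 7866 CPM in MEFs, 720 to 1376 CPM in MKOS 2NG-, 144 to 408 CPM in OKMS E-CAD+ 2NG-, 1143 to 1293 CPM in OKMS E-CAD- 2NG- and 35.0 to 190 CPM in ESCs. All 12 fell from MEF to ESC, and up to 3 were at 0 in an ESC library. The summed level of 12 pluripotency markers, led by *Dppa5a* in 47 libraries, was 2.72 to 11.5 CPM in MEFs, where up to 10 of them were at 0, and 11200 to 18450 CPM in ESCs, so that the labels of both cell types fitted their markers. It was 2388 to 3789 CPM in MKOS 2NG-, 839 to 3599 CPM in OKMS E-CAD+ 2NG- and 252 to 267 CPM in OKMS E-CAD- 2NG-. The part of such cell mixtures in the ribosomal protein values was not tested. Mitochondrial transcripts took 3.33% to 13.6% of reads on transcripts, 6.73% to 8.84% in MEFs.

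From 2NG- to 3NG- most members did not pass the test. In MKOS the median was -0.13 and 2 members rose, where 0.352% of all transcripts rose, *Rpl10l* and *Rpl39l*. In OKMS the median was -0.08 and edgeR called 0 members, where 0.0384% of all were called, with 3 at an unadjusted p under 0.05 and 1 called by DESeq2. With no normalization factors the medians were -0.04 and -0.02.

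*Rpl10l* in MKOS was at 0.204, 0.443 and 1.63 CPM in 2NG-, 24.5, 26.3 and 40.5 CPM in 3NG-, and 218, 356 and 272 CPM in 3NG+, 3 levels that did not overlap. From 2NG- to 3NG- it rose by 5.26 ± 0.53 (FDR 3.2e-08), 17 reads against 741 and a pooled ratio of 43.4 (95% interval of the counts 26.9 to 74.9). *Rpl39l* in MKOS was at 8.06, 8.71 and 5.96 CPM in 2NG-, 56.5, 83.6 and 107 CPM in 3NG-, and 536, 765 and 654 CPM in 3NG+, again without overlap, and rose by 3.35 ± 0.38 (FDR 3.6e-07) from 2NG- to 3NG-. *Rpl39l* had first fallen from MEF to 2NG-, by 1.16 ± 0.40 on the log2 scale (FDR 0.028) in MKOS and by 1.44 ± 0.43 (FDR 0.012) in OKMS E-CAD- cells. The MKOS call was lost in 4 of 14 alternative fits (FDR up to 0.107), among them those without MKOS MEF replicate 1 or 2 or MKOS 2NG- replicate 3. The E-CAD- call was lost in 3 of 14 (FDR up to 0.238), among them those without OKMS MEF replicate 1 or E-CAD- 2NG- replicate 2. In OKMS E-CAD+ 2NG- the change of *Rpl39l* from 18.2 and 11.1 CPM in OKMS MEF was 0.47 ± 0.41 (FDR 0.40).

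In OKMS neither paralog passed the test from 2NG- to 3NG-, and both rose from 3NG- to 3NG+. *Rpl10l* was at 0.511, 0 and 0.988 CPM in E-CAD+ 2NG-, 3.93, 1.43 and 5.89 CPM in E-CAD+ 3NG-, and 227, 94.4 and 115 CPM in 3NG+. Over the pooled OKMS MEF libraries, with 0 reads and a floor of 3 reads for the group, these levels were at least 3.46-fold, 17.96-fold and 788-fold higher. *Rpl39l* was at 9.54, 29.3 and 19.4 CPM in E-CAD+ 2NG-, 37.4, 29.8 and 29.9 CPM in 3NG-, and 536, 464 and 347 CPM in 3NG+. The OKMS levels of both genes in 3NG+ lay above those in 3NG- in every library. From 2NG- to 3NG- the changes were 2.34 ± 0.59 (FDR 0.31) for *Rpl10l* and 0.72 ± 0.35 (FDR 0.94) for *Rpl39l*, although every 3NG- library lay above every 2NG- library for both genes. The pooled *Rpl10l* levels, 17 reads against 75, had a ratio of 5.195 (95% interval of the counts 3.04 to 9.39, counting error only).

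In 3NG- both genes were higher in MKOS than in OKMS, *Rpl10l* by 2.88 ± 0.44 (FDR 0.00011) and *Rpl39l* by 1.22 ± 0.34 (FDR 0.049). The *Rpl39l* call was lost in 8 of 15 alternative fits, with FDR values up to 0.31, and the *Rpl10l* call in none of 15. The difference between the cassettes in the step from 2NG- to 3NG-, a comparison added after these values were seen, was -2.63 ± 0.50 for *Rpl39l* (OKMS minus MKOS, FDR 0.039) and -2.92 ± 0.86 for *Rpl10l* (FDR 0.58). *Rpl39l* was the 1 member lower in this difference, where 0.0192% of all transcripts were lower. It lost the call without any 1 of 9 of the 12 libraries compared.

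E-CAD- OKMS cells held both paralogs at low levels. *Rpl10l* was at 0.949, 0 and 0 CPM in E-CAD- 2NG- and 0, 0.349 and 0.272 CPM in E-CAD- 3NG-. *Rpl39l* was at 5.69, 1.72 and 8.32 CPM and at 6.28, 8.37 and 8.17 CPM. All E-CAD+ 3NG- libraries were above all E-CAD- 3NG- libraries for both genes. In 2NG-, 1 member was higher in E-CAD+ cells, where 1.69% of all transcripts were higher, *Rpl39l* by 1.91 ± 0.39 (FDR 0.0032). In 3NG-, 2 were higher, where 1.59% of all were higher, *Rpl10l* by 4.49 ± 0.88 (FDR 0.0015) and *Rpl39l* by 2.21 ± 0.39 (FDR 0.00037). The median of all members was 0.22 in 2NG- and 0.16 in 3NG-, or 0.08 and 0.06 with no normalization factors, where that of all transcripts moved to -0.11 and -0.04. Of 12 pluripotency markers 8 were higher in E-CAD+ cells in each gate (medians 2.10 and 3.16). Of 12 fibroblast markers 5 and 1 were lower (medians -1.82 and -1.61), where 108 and 26 of all 15630 transcripts were lower. In E-CAD- 3NG- the summed levels were 232 to 252 CPM for pluripotency and 1202 to 1744 CPM for fibroblast markers. Their part in the ribosomal protein values was not tested.

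**Figure D4:**
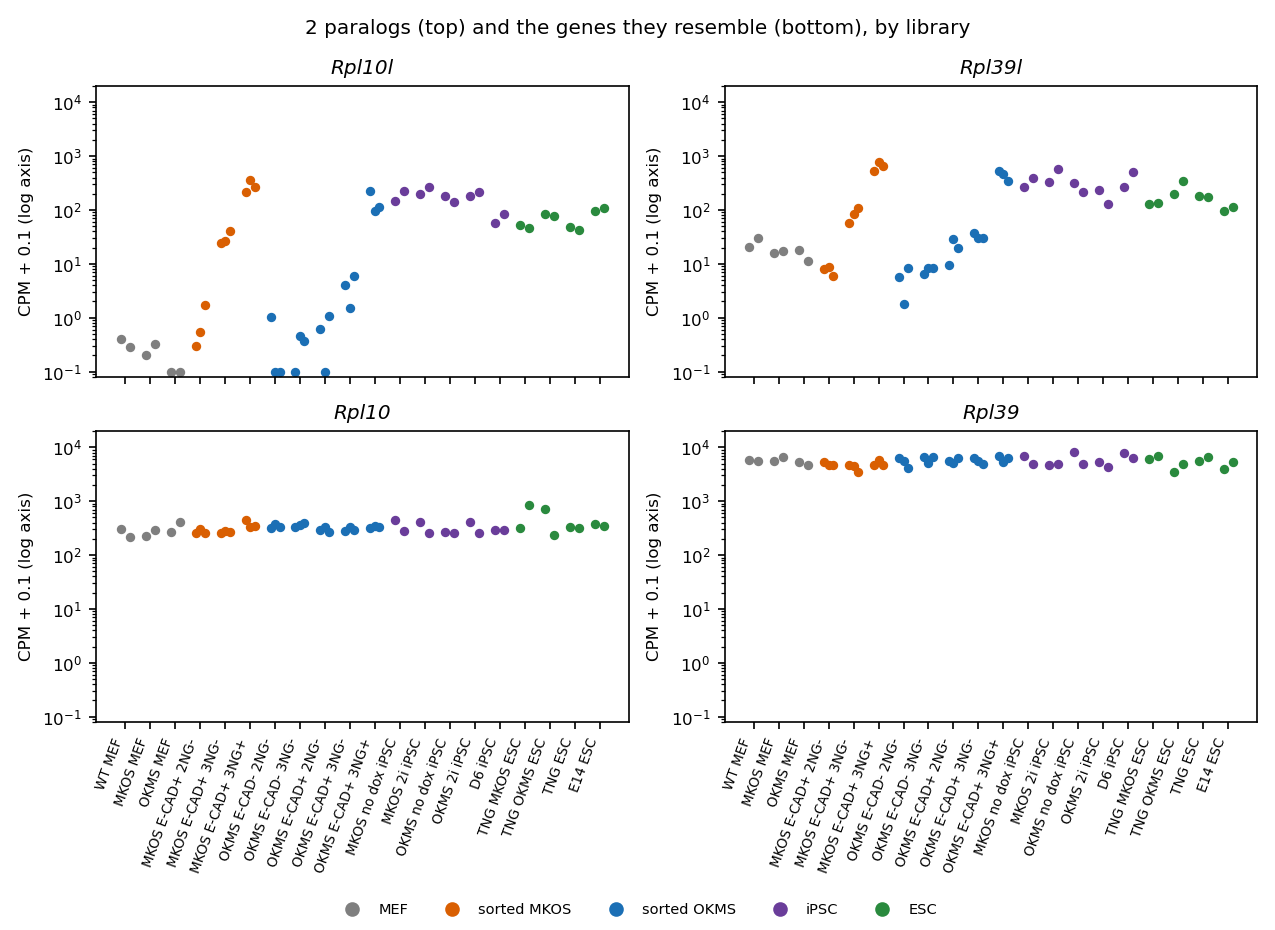
CPM of the paralogs *Rpl10l* and *Rpl39l* and of their counterparts *Rpl10* and *Rpl39* in each library, with 1 point per library, conditions along the x axis and CPM + 0.1 on a log y axis. In both cassettes *Rpl10l* and *Rpl39l* are higher in every 3NG+ library than in every 3NG- library, while *Rpl39* stays between 3422 and 8205 CPM throughout.

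From 3NG- to Nanog-GFP+ cells most ribosomal protein transcripts had a positive change, but few passed the test. From MKOS 3NG- to 3NG+ 79 of 81 members had a positive change, with a median of 0.50 beside -0.04 for all transcripts, and 9 rose, where 0.557% of all rose. From OKMS E-CAD+ 3NG- to 3NG+ also 79 of 81 were positive, with a median of 0.45 beside -0.06, and 8 rose, where 3.06% of all rose. With no normalization factors the medians were 0.33 and 0.24 and those of all transcripts -0.21 and -0.27. At an unadjusted p under 0.05 there were 53 and 43 members, all higher, and DESeq2 called 30 and 20. Neither kind of count has a share of all transcripts beside it, so they do not show whether the members stood out.

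Marker transcripts moved in the same step. The summed pluripotency markers went from 7818 to 10060 CPM in MKOS 3NG- to 12170 to 13660 CPM in 3NG+, and from 1682 to 5974 CPM in OKMS E-CAD+ 3NG- to 15630 to 17030 CPM in 3NG+, without overlap. The summed fibroblast markers were at 899 to 1599 CPM in MKOS 3NG- and 172 to 942 CPM in 3NG+, and at 284 to 623 CPM and 268 to 456 CPM in OKMS, with overlap in both. Reads on repeats made up 16.9% to 21.8% of all counted reads in MKOS 3NG- and 20.9% to 33.1% in MKOS 3NG+. In OKMS they made up 15.8% to 19.5% in E-CAD+ 3NG- and 19.2% to 21.1% in 3NG+, with overlap in both cassettes. The part of these in the ribosomal protein values was not tested.

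The paralogs led both steps. In MKOS *Rpl10l* rose by 3.40 ± 0.41 (FDR 2.2e-06) and *Rpl39l* by 3.18 ± 0.36 (FDR 8.2e-07), followed by *Rpl17* (1.12 ± 0.24), *Rpl36* (1.09 ± 0.29) and *Rpl27a* (0.93 ± 0.19). In OKMS *Rpl10l* rose by 5.49 ± 0.47 (FDR 4.0e-10) and *Rpl39l* by 3.995 ± 0.38 (FDR 2.2e-09), and *Rps29* (0.72 ± 0.18) and *Rps21* (0.67 ± 0.18) rose less. *Rpl27a* was at 235, 273 and 240 CPM in MKOS 3NG- and 451, 424 and 394 CPM in 3NG+, and *Rps29* at 5140, 4884 and 6369 CPM in OKMS 3NG- and 8000, 7224 and 8181 CPM in 3NG+, neither with overlap. *Rpl31* was also called in both steps. Of the members outside the paralogs, *Rpl36* lost its call in 8 of 15 alternative fits (FDR up to 0.141), among them those without any 1 of the 6 libraries. *Rps21* lost it in 5 of 15, *Rps29* in 4 of 15, *Rpl17* in 2 of 15 and *Rpl27a* in 0 of 15. A test of the difference between the cassettes called 0 members in edgeR and 0 in DESeq2, where edgeR called 0.0256% of all transcripts, and 2 members had an unadjusted p under 0.05.

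These counts rest on single libraries. In MKOS 3 members were called without 3NG- replicate 2 or without 3NG+ replicate 2, and 5 without 3NG- replicate 3. In OKMS the count was 2 without 3NG- replicate 1, 3 without 3NG+ replicate 1 or 3NG- replicate 2, and 4 without 3NG+ replicate 3. Both paralogs kept their calls in every one of these fits.

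**Figure D5:**
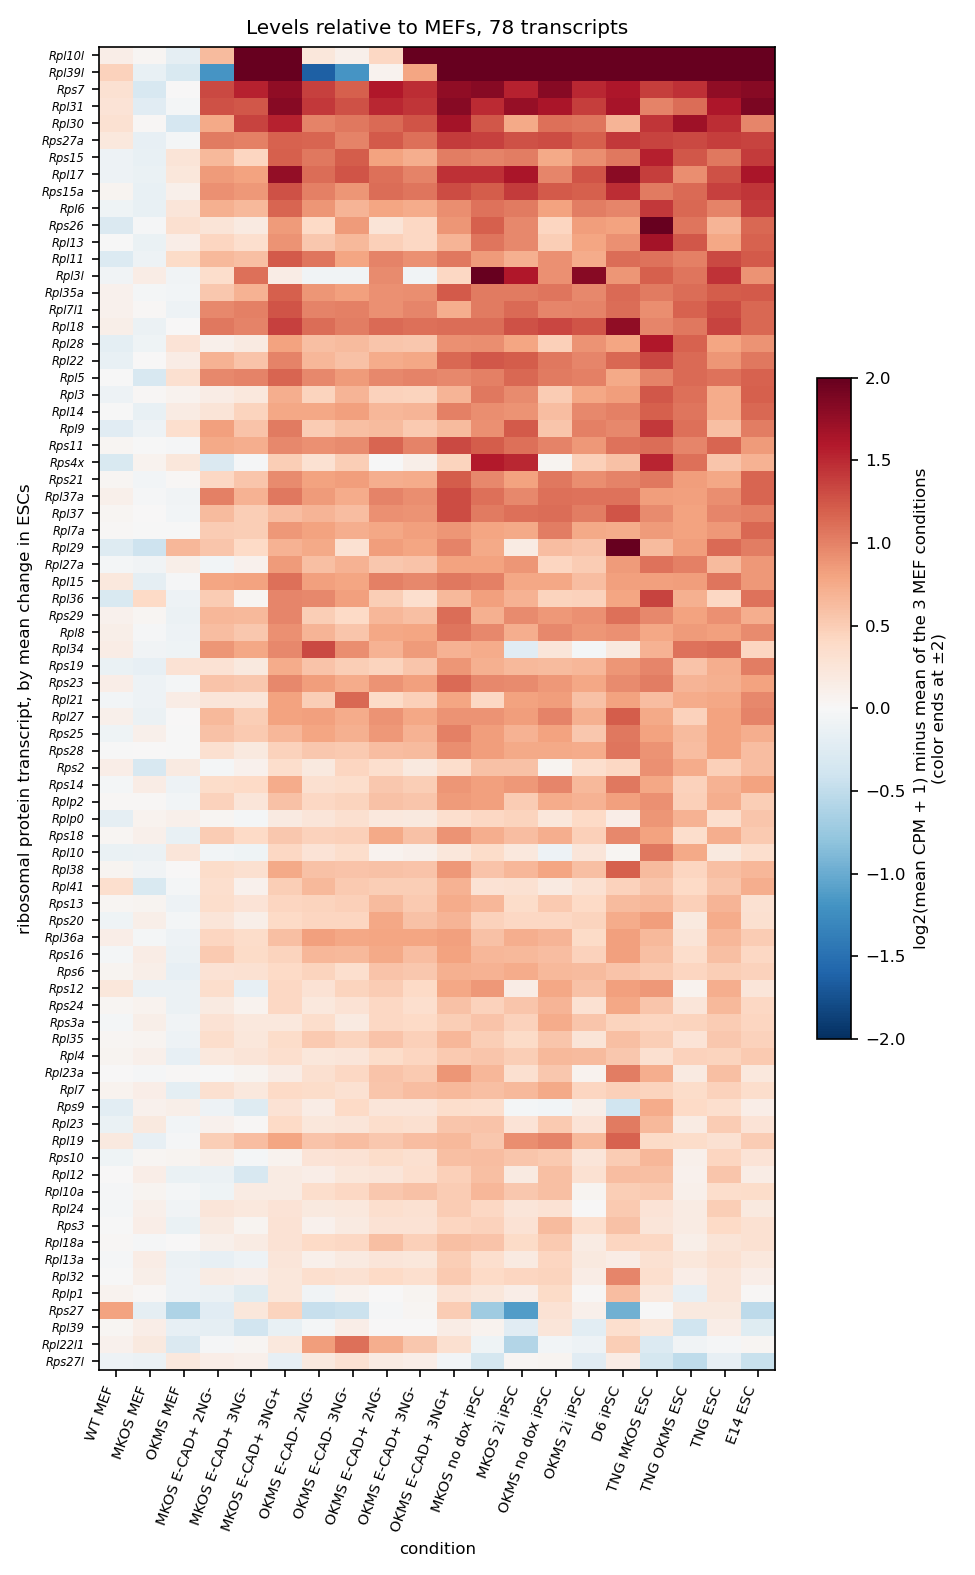
Levels of the ribosomal protein transcripts over the 20 conditions, with 78 of the 81 tested genes in rows, conditions in columns and color for log2(mean CPM + 1) minus the mean of the 3 MEF conditions, ending at ±2. Most rows turn red to the right of the 3 MEF columns, and the rows of *Rpl10l* and *Rpl39l* at the top change most.

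Between 3NG+ cells and established iPSCs no member passed the test. From 3NG+ to iPSCs without doxycycline edgeR called 0 members in MKOS, where 2.14% of all transcripts were called, and 0 in OKMS, where 0.614% were called, with 4 members at an unadjusted p under 0.05 in each. DESeq2 called 2 in MKOS and 0 in OKMS. From iPSCs without doxycycline to the ESCs of the same cassette, edgeR called 0 members in MKOS, where 0.307% of all were called, with 4 at an unadjusted p under 0.05 and 1 called by DESeq2. In OKMS 37 members had an unadjusted p under 0.05, all lower in ESCs, and DESeq2 called 19, both given without the share of all transcripts. The median was -0.40. With no normalization factors this median was -0.12, with 51 of 81 negative, and that of all transcripts 0.21. By edgeR 1 was lower, where 0.48% of all were lower: *Rpl19*, at 2573 and 1840 CPM in iPSCs and 1674 and 1209 CPM in ESCs (-0.92 ± 0.22, FDR 0.031). The *Rpl19* groups did not overlap, but the call was lost in 6 of 13 alternative fits, among them that without the 2 ESC libraries that stood apart. Over these 13 fits the *Rpl19* change lay between -1.18 and -0.61. The other OKMS values of this step include the TNG OKMS ESC library that stood apart.

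In 2i medium no member passed the threshold: edgeR called 0 in MKOS iPSCs, where 1.97% of all transcripts were called, and 0 in OKMS iPSCs, where 0.505% were called. At an unadjusted p under 0.05 there were 3 and 10 members, all lower in 2i, and DESeq2 called 0 in both. The medians were -0.13 and -0.26, or -0.07 and -0.12 with no normalization factors.

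The following comparisons were added after the values of the paralogs were seen. *Rpl10l* was at 140 to 270 CPM in the 8 MKOS and OKMS iPSC libraries, at 56.6 and 84.7 CPM in D6 and at 42.8 to 111 CPM in the ESCs, so the MKOS and OKMS iPSC libraries lay above all ESC libraries. From these iPSCs, without doxycycline and in 2i together, to TNG MKOS and TNG OKMS ESCs it fell by 1.71 ± 0.30 on the log2 scale (FDR 0.00020). It was 1 of 3 members that were lower, where 3.82% of all transcripts were lower, with *Rpl31* (-0.60 ± 0.14) and *Rpl19* (-0.50 ± 0.14). There was 1 that was higher, where 4.12% of all were higher, *Rpl10* (0.56 ± 0.17, FDR 0.031). Without the 2 ESC libraries that stood apart *Rpl10* had a change of -0.12 (FDR 0.97), and *Rpl31* and *Rpl19* lost their calls.

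From 3NG+ to the ESCs of the same cassette 3 members fell in MKOS, where 2.92% of all transcripts fell, and 12 in OKMS, where 1.7% fell. The 3 were *Rpl10l* (-2.55 ± 0.46), *Rpl39l* (-2.38 ± 0.41) and *Rpl31* (-0.86 ± 0.21). The largest of the 12 were those of *Rpl31* (-1.01 ± 0.21), *Rpl23a* (-0.9993 ± 0.25), *Rpl36a* (-0.87 ± 0.22), *Rps18* (-0.83 ± 0.21) and *Rpl37a* (-0.79 ± 0.18). The OKMS count was 0 without TNG OKMS ESC replicate 1, 4 without OKMS 3NG+ replicate 1 or 3, and 0 without both ESC libraries that stood apart. In MKOS 9 members were called without TNG MKOS ESC replicate 1, 6 higher and 3 lower, and 2 without replicate 2, where the *Rpl31* change was -0.59 (FDR 0.339). DESeq2 called 4 in MKOS and 39 in OKMS, given without the share of all transcripts. Of 81 members, 44 had a positive change in MKOS (median 0.05) and 72 a negative one in OKMS (median -0.59). With no normalization factors the OKMS median was -0.29, with 61 negative, and that of all transcripts was 0.32. These medians include the ESC libraries that stood apart. Of the 12 fibroblast markers 8 fell in the MKOS comparison (median -5.29) and 7 in the OKMS one (median -5.18), and their part in the ribosomal protein values was not tested.

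*Rpl29* set the D6 line apart. It was at 1753 and 1680 CPM in D6 and at 85.8 to 294 CPM in the other 46 libraries, with 27% of its reads unique. Both D6 libraries also lay above the other 46 for *Rpl18*, *Rpl23*, *Rpl32*, *Rpl38* and *Rps28*, by smaller factors. The margin was narrow for *Rpl32* (lowest D6 value 8750 CPM, highest other value 8674 CPM) and *Rps28* (5798 and 5778 CPM). The share of all transcripts with this pattern was not computed, so it is not known whether these members set D6 apart. Against MKOS iPSCs without doxycycline *Rpl29* was higher by 3.13 ± 0.27 (FDR 1.6e-10), in a comparison added after its values were seen. *Rpl18* was also higher in D6, by 0.80 ± 0.19 (FDR 0.021), and these 2 were the members called higher, where 0.429% of all transcripts were higher. *Rpl18* was at 2367 and 2344 CPM in D6 and at 1542 and 1438 CPM in MKOS iPSCs without doxycycline, without overlap, and its call was lost without any 1 of the 4 libraries. The *Rpl29* call held in all 13 alternative fits.

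Lists of other genes of ribosome production and translation were tested in the same fit, so the shares of all transcripts given above apply to them. From MEF to ESC 29.6% of all rose and 30.4% fell. From MEF to 2NG- 15% rose in MKOS, 15.7% in OKMS E-CAD+ cells and 11.7% in E-CAD- cells, and 12%, 13.5% and 10.1% fell. Of 40 ribosome assembly factors and RNA polymerase I subunits all 40 rose from MEF to ESC, with a median of 1.89, led by *Heatr1* (3.13 ± 0.18), *Polr1b* (3.02 ± 0.27), *Rrp9* (2.76 ± 0.19) and *Nolc1* (2.72 ± 0.15). The median of the ribosomal proteins was 0.80. All 40 also rose from MKOS MEF to 2NG- (median 1.83), 36 from OKMS MEF to E-CAD+ 2NG- (1.38) and 33 to E-CAD- 2NG- (1.22), none falling in any of these, and 0 of 40 passed the test from 2NG- to 3NG- in either cassette.

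Of 5 ribosomal proteins whose symbols the rule does not match, 3 rose from MEF to ESC, among them *Rpl36al* (0.52 ± 0.12) and *Gnb2l1* (0.45 ± 0.12). Of 15 elongation factors and other TOP genes 10 rose and 1 fell (median 0.41), with *Hnrnpa1* (1.18 ± 0.38) and *Eef1g* (1.01 ± 0.11) the largest. From MEF to 2NG- 2 of the 15 rose in MKOS, 5 in OKMS E-CAD+ cells and 2 in E-CAD- cells, and 1 fell in each. The gene that fell in each step was *Tpt1*, a TOP gene, by 0.77 ± 0.21 in MKOS. Of 18 initiation factors 14 rose (median 0.79), led by *Eif3b* (1.17 ± 0.14) and *Eif4a1* (1.11 ± 0.12). In the step from MEF to 2NG- 9 of the 18 rose in each cassette in E-CAD+ cells and 3 in OKMS E-CAD- cells.

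Of 76 proteins of the mitochondrial ribosome, which is separate from the cytosolic one, 51 rose and 7 fell from MEF to ESC (median 0.58), with *Mrpl15* (1.96 ± 0.14) and *Mrps18b* (1.94 ± 0.16) the largest rises. From MEF to 2NG- 31 rose in MKOS, 45 rose and 2 fell in OKMS E-CAD+ cells, and 35 rose and 2 fell in E-CAD- cells. Of 8 regulators of TOP mRNA translation 6 rose and 1 fell from MEF to ESC, with *Larp1* up by 1.79 ± 0.17 and *Eif4ebp1*, an inhibitor of eIF4E, by 1.36 ± 0.16. From MEF to 2NG- 2 of the 8 rose in MKOS, 1 in OKMS E-CAD+ cells and 1 in E-CAD- cells, and 0 fell. *Larp1* rose in each step, by 1.36 ± 0.28 in MKOS, 1.10 ± 0.28 in OKMS E-CAD+ cells and 0.90 ± 0.27 in E-CAD- cells.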

How the data were processed

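STRT libraries from sorted or cultured mouse cells were sequenced by the authors, and the deposited table holds read counts per transcript, repeat type and spike-in, with no normalization. Per the file headers, reads with several positions were counted at their most 5′ exonic position, and a further column gives the reads with a unique position. The submitters' processing notes name Bowtie 0.12.7 and mm10, while the methods name mm9; the positions in the table matched GRCm38. Every column was matched to a sample by name, and 0 columns belonged to none. Reads on 24264 transcripts set the library sizes; 1554 repeat types and 104 spike-ins were left out.

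Counts were tested with edgeR 4.0.16 in R 4.3.3 (filterByExpr, TMM factors, a quasi-likelihood fit with 1 coefficient for each of the 20 conditions), with Benjamini-Hochberg adjustment over 15630 transcripts and a threshold of 0.05. Of 27 comparisons, 5 were added after values were seen. Errors are SE of log2 changes. Fits without 1 library kept the dispersions of the complete fit. DESeq2 1.42.0 was an alternative. Counts of members at an unadjusted p or by DESeq2 are given without the share of all transcripts. They do not show whether the members stood out. The other steps used Python 3.11.15, pandas 2.3.3, NumPy 2.4.6, SciPy 1.17.1 and Matplotlib 3.10.9. Intervals of pooled counts are exact 95% intervals. The scripts were tested on simulated data.

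Groups share replicate numbers, which the labels do not say mark a shared source. Deviations from the condition means of 27 same-numbered pairs, in 9 comparisons with 3 numbers, correlated at 0.116 on average (-0.0291 to 0.352). Only from MKOS 2NG- to 3NG- was every pair above 0.1 (0.238, 0.104 and 0.352), and there a replicate block called 2 members, as without it.

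The members, the gene lists and the tests were chosen with earlier results of these data known. Members named are all paralogs and stalk proteins, the 5 most and 5 least abundant, the 5 with the lowest unique share, and in each comparison up to 5 called members with the largest rise and fall; of other lists, up to 4 called genes with the largest change. *Rpl13*, *Rps4x*, *Rps26*, *Rpl22*, *Rpl10* and *Rpl39* were added after their values were seen. A few genes that the rule names are not reported here. Alternatives were other factors or none, no filter, a replicate block, libraries compared alone, members by unique share, and libraries left out.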

Additional observations from a re-analysis of the deposited data

Results flagged for a closer look

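The change of *Rpl39l* from E-CAD+ 2NG- to 3NG- differed between the cassettes, by -2.63 ± 0.50 (log2, OKMS minus MKOS, FDR 0.039 by edgeR), in a comparison added after its values were seen. In MKOS its mean level was 7.58 ± 1.44 CPM in 2NG- and 82.5 ± 25.4 CPM in 3NG- (SD, n = 3). In OKMS E-CAD+ cells it was 19.4 ± 9.90 CPM in 2NG- and 32.3 ± 4.37 CPM in 3NG- (SD, n = 3). What marked it was the test of the difference between the cassettes. Over 21 alternative fits the difference stayed between -2.955 and -2.218 and the FDR ranged from 4.14e-09 to 0.263, with the call lost in 11 of them.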

How the results depend on the processing

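Counts are of called members. They are given without the share of all transcripts called in the same fit. A larger count in another fit therefore does not show that the members stood out more. The count from MEF to ESC stayed within 1.5 times in every alternative, 67 to 76 with 1 library left out, as did the ratios of shares. DESeq2 called 1 from OKMS 2NG- to 3NG-, 30 and 20 from 3NG- to 3NG+ in MKOS and OKMS, 10, 8 and 4 for MKOS against OKMS in 2NG-, 3NG- and 3NG+, 2 from MKOS 3NG+ to iPSC, 1 and 19 from iPSC to ESC in MKOS and OKMS, 1 between the MEFs, 1 in the cassette difference from MEF to 2NG-, 39 from OKMS 3NG+ to ESC, 11 from all iPSC to ESC and 5 for D6. With factors and sizes computed without the members, the counts were 14 and 14 from 3NG- to 3NG+, 7 and 1 for MKOS against OKMS in 2NG- and 3NG-, and 2 from OKMS iPSC to ESC. With relative log expression factors, the last 2 of these comparisons gave 1 and 3. With no factors, 5 and 3 were called from 3NG- to 3NG+, 0 from OKMS iPSC to ESC and 2 from OKMS 3NG+ to ESC. With libraries compared alone, 21 were called from MKOS 3NG- to 3NG+, 17, 5 and 0 for MKOS against OKMS, 0 and 1 for E-CAD in 2NG- and 3NG-, 0 from OKMS iPSC to ESC, 1 between the MEFs, 0 in the cassette difference from 2NG- to 3NG-, and 1 each from OKMS 3NG+ to ESC, from all iPSC to ESC and for D6. With no filter, 1 was called from OKMS 2NG- to 3NG-, 20 from MKOS 3NG- to 3NG+, 7, 6 and 3 for MKOS against OKMS, 2 from MKOS 3NG+ to iPSC, 2 and 9 from iPSC to ESC, 1 for MKOS 2i, 1 between the MEFs, 2, 1 and 2 in the cassette differences from MEF, 3NG- and 2NG-, and 5 and 27 from 3NG+ to ESC. Of the members with at least 90% unique reads, 18.2% were called from MKOS MEF to 2NG-, against 32.1% of all. Without 7 sorted libraries named by earlier work on these data (replicate 3 of the 2NG- and 3NG- populations and replicate 2 of OKMS 3NG+), 14 were called from MKOS MEF to 2NG-, 1 and 1 for MKOS against OKMS in 2NG- and 3NG-, 1 from MKOS iPSC to ESC, and 1, 1 and 0 in the cassette differences from MEF, 3NG- and 2NG-. Without the 2 ESC libraries that stood apart, chosen after seeing the data, 22 and 16 were called from 3NG- to 3NG+, 7 and 4 for MKOS against OKMS in 2NG- and 3NG-, 1 from MKOS 3NG+ to iPSC, 0 from OKMS iPSC to ESC, 0 from OKMS 3NG+ to ESC and 1 from all iPSC to ESC; here *Rpl10* reversed to -0.12. With 1 library left out, the counts ranged from 15 to 25 from MKOS MEF to 2NG-, 24 to 50 and 12 to 34 from OKMS MEF to E-CAD+ and E-CAD- 2NG-, 3 to 10 and 2 to 12 from 3NG- to 3NG+, 0 to 2, 1 to 2 and 0 to 3 for MKOS against OKMS, 0 to 1 from MKOS 3NG+ to iPSC, 0 to 11 from OKMS iPSC to ESC, 0 to 1 for MKOS 2i, 0 to 1 in the cassette difference from 2NG-, 2 to 9 and 0 to 18 from 3NG+ to ESC, 2 to 11 from all iPSC to ESC and 1 for D6. The causes were not tested, beyond fewer samples or other transcripts in a fit. Of the values of single named members, 789 kept direction and call, 154 lost the call and 1 reversed.

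The groups share replicate numbers, and 1 of 9 comparisons with 3 numbers met the rule for pairing. With a replicate block, 14 members were called from MKOS 3NG- to 3NG+ and 1 from MKOS iPSC to ESC, and no other count moved by over 1.5 times.

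Of the member reads 49.9% were unique, so reads of pseudogenes could not be separated in every member. At 1429717 to 14174725 reads, *Rpl3l* and *Rpl10l* in early populations lie near the 3-read floor, as does *Rps27* in some libraries. The 2 to 3 libraries per condition limit every call between single conditions.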
